A study of Homo sapiens with 6 samples.

Results

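Non-coding small nucleolar RNA (snoRNA) host genes were examined in MDA-MB-436 cells, an established triple-negative breast cancer line with mutant BRCA1. The genes were chosen by name, as the symbols SNHG followed by a number together with GAS5, ZFAS1, EPB41L4A-AS1, DANCR and TUG1. By this rule 33 of the 37887 rows of the count table were members, and 27 of these 33 passed the filter on low counts, as did 15355 rows in all. Every culture, control or not, was taken to carry the same stable construct, a tetracycline-inducible shRNA directed at the transmembrane mucin MUC1. The control group was 3 libraries from cells given 0.1% DMSO as vehicle, and the shMUC1 group was 3 libraries from cells given 500 ng/ml doxycycline, which induces the shRNA. Titles of the control samples read control shRNA but their treatment field reads DMSO, and the treatment field was followed. If the titles hold, the construct also differs between the groups and cannot be told apart from the treatment. The length of treatment was not given in the sources used here. No library with doxycycline and a control shRNA was analysed here, so doxycycline itself and the silencing of MUC1 cannot be told apart, and the results are from a single line.

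The transcript of a snoRNA host gene is used in both of its parts. The introns are spliced out and trimmed into snoRNAs, which guide methylation (box C/D class) or pseudouridylation (box H/ACA class) of ribosomal and other RNAs, or into their Cajal body relatives (SCARNAs). The exons of the genes studied here are joined into a spliced RNA with little coding capacity. Many of these spliced RNAs start with a tract of pyrimidines, the 5′ terminal oligopyrimidine (TOP) feature known from ribosomal protein mRNAs, and many are bound by ribosomes and removed by nonsense-mediated decay, so their level depends on both transcription and decay. GAS5 was named for its accumulation in growth-arrested cells. DANCR and TUG1 are long non-coding RNAs studied mostly for roles of the spliced RNA, and no snoRNA was assigned to TUG1 by name or position.

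The start sites are shown first because a TOP feature would sit there. Each line gives the 30 bases around the gene start in RefSeq (GRCh38.p14), 15 to each side, with the longest run of C or T in capitals. The run may lie anywhere in the window, so the capitals need not mark the first bases of the RNA. In SNHG29 they lie wholly before the RefSeq start. For GAS5 the RefSeq start lies upstream of the start most often used in GENCODE release 29 (6 of 29 transcripts). Its line gives the first 30 bases from the latter on GRCh38, with the leading pyrimidines in capitals. The start was replaced for GAS5 only, whose RefSeq window has a longest run of 4. Other genes whose GENCODE gene start also differs, such as SNHG12, ZFAS1 and SNHG29, were left at RefSeq. The first 7 genes were lower in shMUC1 cells, the next pair was not called, the next 4 were higher, and TUG1, also lower, is given last. Not all members are shown, and SNHG11, also lower, has a RefSeq run of 5.
ZFAS1, chr20:49278627-49278656, plus strand: aggaagccattcgTTCTTTCgcgtctgcgg
SNHG5, chr6:85678719-85678748, minus strand: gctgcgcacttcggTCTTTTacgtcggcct
SNHG1, chr11:62855871-62855900, minus strand: ccggggagattcgttctcaTTTTTCTactg
SNHG3, chr1:28505928-28505957, plus strand: cctcagtgagtttctgaTTCTCTaactgcg
SNHG29, chr17:16438972-16439001, plus strand: CCCCTCCTTTTgtgaggattgggatattcc
SNHG12, chr1:28581859-28581888, minus strand: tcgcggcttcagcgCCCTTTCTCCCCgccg
GAS5, chr1:173867960-173867989, minus strand: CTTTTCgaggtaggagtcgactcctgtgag
SNHG16, chr17:76557749-76557778, plus strand: cgcaggggcggtctcgcgTTCTTTTCgagg
SNHG19, chr16:2155344-2155373, minus strand: ctcgcccgcccctgTCTTTTCggggtcgag
DANCR, chr4:52712379-52712408, plus strand: tcggctgcgcgccccgCCCTTgcccagagt
SNHG10, chr14:95534858-95534887, minus strand: tgggCCTTatgccggagCCTCaTCCTactg
SNHG30, chr17:35568099-35568128, plus strand: taggctgtaagaCCTgagccgggcggagaa
SNHG8, chr4:118278747-118278776, plus strand: aaggcctcggCCTTTCacattcgggaagcg
TUG1, chr22:30969250-30969279, plus strand: taCCgggggcgggCCgagcgacgcagCCgg

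The libraries held 18678307 to 27825546 counts, so that 3 counts, the limit set for a gene at 0, correspond to 0.108 to 0.161 counts per 1000000 (CPM). MUC1 had 93, 84 and 102 counts in control and 72, 51 and 34 in shMUC1 libraries, or 3.88 ± 0.401 against 2.14 ± 0.412 CPM (SD, n = 3). It fell by 0.84 on the log2 scale (SE 0.214, edgeR adjusted p = 0.00119). Of the markers that define the line as triple-negative, ESR1 had 2 to 12 and PGR 0 to 4 counts, and ERBB2 went from 44.7 ± 2.41 to 39 ± 0.463 CPM (SD, n = 3). The mesenchymal marker VIM fell from 718 to 417 CPM, ZEB1 fell from 35.1 to 17.9 CPM and FN1 rose from 962 to 1285 CPM. The epithelial markers KRT19, GRHL2, RAB25 and ESRP1 had 0 to 4 counts in every library. The leukocyte marker PTPRC had 2 to 10 counts in control and 10 to 24 in shMUC1 libraries, and the endothelial marker PECAM1 had 25 to 40 and 4 to 13. Mitochondrially encoded genes held 3.35 to 4.17% of control counts and 4.95 to 5.22% of shMUC1 counts. The part of these differences in the results on the host genes was not tested, except that the mitochondrial genes were left out in an alternative.

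RNA levels of GAS5, SNHG1, SNHG3, SNHG29, ZFAS1 and TUG1 were lower in shMUC1 cells, whereas those of DANCR, SNHG30, SNHG10 and SNHG8 were higher. The counts are by gene and do not separate spliced from unspliced RNA. Of the 27 tested members, 13 were lower (48.1%) and 4 were higher (14.8%) at an adjusted p under 0.05 by edgeR, and 10 were not called. Over all 15355 genes tested, 23.6% were lower and 25.2% were higher by the same rule, 48.7% in all. The share of lower calls among the members was thus above the background and that of higher calls below it. The changes were small: none of the 27 passed a fold change of 2 (2.21% of all genes higher, 3.74% lower), and with a fold change over 1.5 the calls were DANCR and SNHG30, higher, and TUG1, lower (5.51% and 8.34% of all genes). The median log2 fold change was -0.22 over the members and 0.00058 over all genes. The 3 shMUC1 libraries did not overlap with the 3 control libraries in CPM for 21 of the 27 members, against 54.8% of all genes tested.

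**Figure D1:**
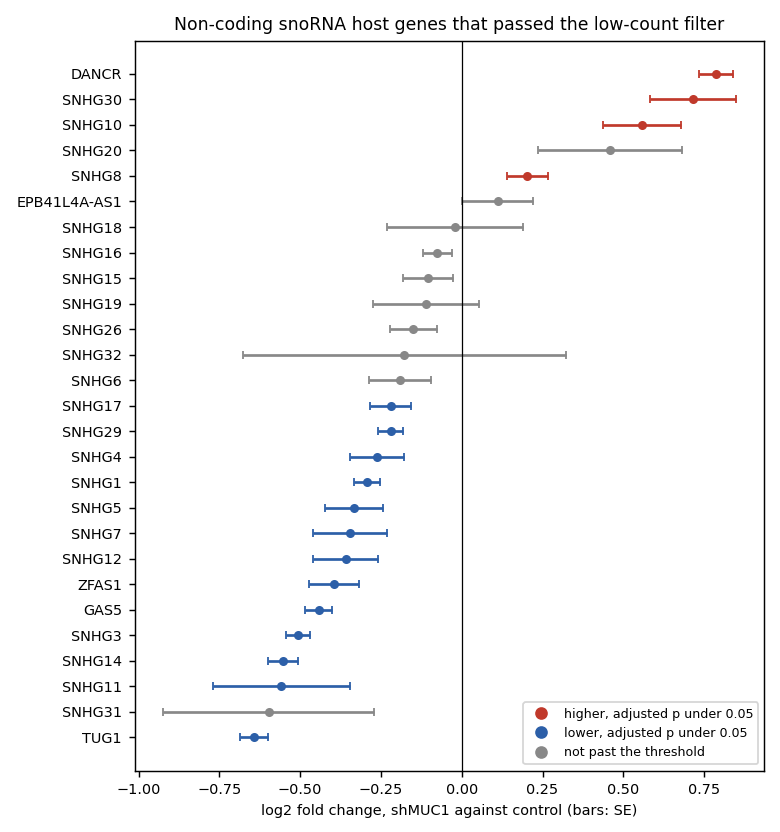
Log2 fold change of the 27 tested host genes, shMUC1 against control, with its SE as bars. The 13 lower genes (blue) run from -0.64 for TUG1 to -0.22 for SNHG17, and the 4 higher genes (red) from 0.20 for SNHG8 to 0.79 for DANCR. Genes in grey did not pass an adjusted p of 0.05.

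Taken as a sum, the 33 members held 0.139%, 0.138% and 0.139% of all counts in the control libraries and 0.115%, 0.114% and 0.114% in the shMUC1 libraries. The groups did not overlap. The summed level of the members went from 1377 ± 5.84 to 1150 ± 8.51 CPM (SD, n = 3). Both measures are relative to the library total, so a change in the RNA content of the cells cannot be told apart from a change in these RNAs. The 13 lower genes together went from 1076 to 812 CPM and the 4 higher genes from 99.5 to 148 CPM, sums that follow from how these genes were picked. Per kilobase of annotated exon, the highest levels in control cells were those of SNHG29 (53.6 CPM per kb), SNHG3 (49.4), SNHG8 (39.7), GAS5 (36.9), SNHG1 (34.7) and DANCR (21.8). In shMUC1 cells the order by the same measure was SNHG29 (46.0), SNHG8 (45.6), DANCR (37.5), SNHG3 (34.8), SNHG1 (28.3) and GAS5 (27.1). These levels average over all annotated exons, and a host of which a short isoform is used would be set too low by them.

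Among hosts of box C/D snoRNAs, 6 of 13 tested members were lower and 1 was higher. Over all genes tested, 23.6% were lower and 25.2% were higher. GAS5, the host of SNORD44, SNORD47 and SNORD74 to SNORD81, had 135, 129 and 137 CPM in control and 98.6, 96.6 and 100 CPM in shMUC1 libraries. Every shMUC1 library lay below every control library, and GAS5 fell by 0.44 on the log2 scale (SE 0.0409, edgeR adjusted p = 1.46e-11). SNHG1, the host of SNORD22 and SNORD25 to SNORD31, had 131, 130 and 130 CPM in control and 107, 103 and 109 CPM in shMUC1 libraries. The control libraries were nearly level and lay above every shMUC1 library, and SNHG1 fell by 0.29 on the log2 scale (SE 0.04, edgeR adjusted p = 1.06e-07). ZFAS1, which carries SNORD12, SNORD12B and SNORD12C, had 28.1, 27.8 and 31.9 CPM against 22.6, 22.8 and 21.4 CPM. It fell by 0.39 (SE 0.0778, edgeR adjusted p = 5.55e-05), with no overlap between the groups. SNHG5, with SNORD50A and SNORD50B, had 21, 19.3 and 19.4 CPM in control and 16.1, 15.8 and 15.4 CPM in shMUC1 libraries, again without overlap. Its log2 fold change was -0.33 (SE 0.0888, edgeR adjusted p = 0.00197).

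SNHG29, the host of SNORD49A, SNORD49B and SNORD65, had the highest level per kb of exon among the members in control cells. It had 199, 196 and 210 CPM in control and 170, 180 and 168 CPM in shMUC1 libraries, a log2 fold change of -0.22 (SE 0.0378, edgeR adjusted p = 6.88e-06). SNHG14 is a long transcript of the imprinted Prader-Willi region on chromosome 15, whose introns hold the SNORD115 and SNORD116 clusters and which runs antisense to UBE3A. It had 107, 107 and 109 CPM in control and 78.4, 72.3 and 68.6 CPM in shMUC1 libraries, and fell by 0.55 on the log2 scale (SE 0.0467, edgeR adjusted p = 1.46e-12). SNRPN, the coding gene at the head of the same transcription unit, had 26 to 47 counts and a log2 fold change of 0.09 (SE 0.296), and UBE3A had one of 0.08 (SE 0.0411). Neither passed the threshold. SNHG30, the host of SNORD7, went the other way, with 5.38, 5.17 and 5.5 CPM in control and 8.69, 9.16 and 8.49 CPM in shMUC1 libraries. It rose by 0.72 (SE 0.133, edgeR adjusted p = 2.24e-05).

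Among hosts of box H/ACA snoRNAs, 5 of 10 tested members were lower and 2 were higher, beside 23.6% and 25.2% of all genes tested. SNHG3, which carries SNORA73A and SNORA73B and overlaps the 5′ end of RCC1, had 209, 204 and 194 CPM in control and 141, 143 and 142 CPM in shMUC1 libraries. The shMUC1 libraries were nearly level and lay below every control library, and SNHG3 fell by 0.51 on the log2 scale (SE 0.0374, edgeR adjusted p = 4.22e-14). RCC1, which encodes the nucleotide exchange factor of Ran, had a log2 fold change of 0.01 (SE 0.0406). SNHG7, the host of SNORA17A, SNORA17B and SNORA43, had 10.4, 11.4 and 12 CPM against 8.47, 9.16 and 9.03 CPM and fell by 0.35 (SE 0.115, edgeR adjusted p = 0.0119). SNHG17, the host of SNORA71A to SNORA71D, had 40.8, 42.4 and 42.9 CPM against 35.3, 34.6 and 38.8 CPM and fell by 0.22 (SE 0.064, edgeR adjusted p = 0.00434). SNHG11, with SNORA60 and SNORA71E, was called at few reads, with 77 to 98 counts in control and 38 to 79 in shMUC1 libraries and a log2 fold change of -0.56 (SE 0.212, edgeR adjusted p = 0.0276). SNHG4, with SNORA74A, was the only lower member whose groups overlapped, at 29, 32.2 and 27.3 CPM against 23, 22.9 and 28.4 CPM. Its log2 fold change was -0.26 (SE 0.0834, edgeR adjusted p = 0.00901).

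SNHG12, which holds both classes (SNORA16A, SNORA44, SNORA61 and SNORD99), had 18.2, 18.6 and 22.3 CPM in control and 15.2, 17.2 and 13.4 CPM in shMUC1 libraries. It fell by 0.36 (SE 0.0996, edgeR adjusted p = 0.00277). The calls of SNHG11, SNHG4 and SNHG7 were lost when single libraries were left out. SNHG11 was lost without control replicate 1 or 3 or shMUC1 replicate 1 or 3, and SNHG4 without control replicate 2 or shMUC1 replicate 1 or 2. SNHG7 was lost without shMUC1 replicate 1. Over these alternatives SNHG11 ranged from -0.74 to -0.45, SNHG4 from -0.36 to -0.19 and SNHG7 from -0.40 to -0.31 on the log2 scale.

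The 4 higher members formed no single class. DANCR, also the host of SNORA26 and known as an RNA that holds back differentiation, changed most of all members in size. It had 50.1, 49.4 and 49.7 CPM in control and 91.1, 86.9 and 79 CPM in shMUC1 libraries, a 1.73-fold rise (log2 0.79, SE 0.0528, edgeR adjusted p = 2.81e-15). The control libraries were nearly level, whereas the shMUC1 libraries were more spread. SNHG10, the host of SCARNA13, had 7.80, 7.84 and 7.70 CPM against 9.99, 11.9 and 12.6 CPM and rose by 0.56 (SE 0.12, edgeR adjusted p = 0.000189). SNHG8, which carries SNORA24, had 35.7, 38 and 36.1 CPM against 41.8, 43.8 and 40.7 CPM and rose by 0.20 (SE 0.0626, edgeR adjusted p = 0.00679). In each of the 4 genes every shMUC1 library lay above every control library. SNHG20, the other tested host of a Cajal body RNA (SCARNA16), had a log2 fold change of 0.46 (SE 0.222, edgeR adjusted p = 0.0865) at 50 to 105 counts.

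**Figure D2:**
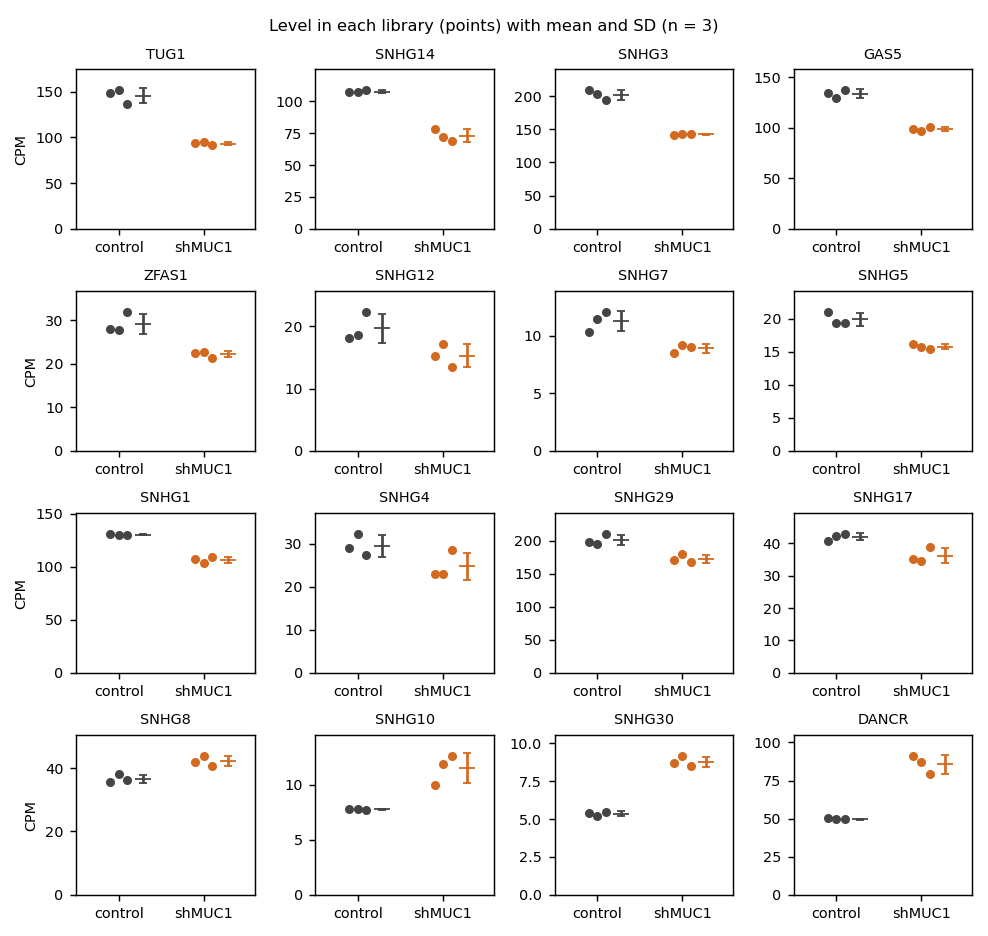
Level in CPM (y axes from 0) of the 16 called members that averaged 100 counts or more, in each of the 3 control (dark) and 3 shMUC1 (orange) libraries, with the mean and SD beside the points. The groups overlap only for SNHG4, where shMUC1 replicate 3 (28.4 CPM) lies above control replicate 3 (27.3 CPM).

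TUG1, the member with the largest decrease, had 149, 152 and 136 CPM in control and 93.5, 94.5 and 91.2 CPM in shMUC1 libraries. It fell by 0.64 on the log2 scale (SE 0.043, edgeR adjusted p = 2.62e-15), with no overlap between the groups. Earlier results of these data had tied the word ATCAGTA in transcripts to lower expression, so its presence in the members is given here as a description. TUG1 holds it in 14 of its 20 annotated transcripts, at 2 positions, and the stretch around the more widely shared position is printed on GRCh38, with the word in capitals.
TUG1, chr22:30978426-30978455, plus strand: ttatcctggacATCAGTAgtttttaattgc
Of the 27 tested members, TUG1 was the only member with the word in at least 50% of its transcripts, against 7.1% of all genes tested. Another 8 members held it in fewer transcripts, among them SNHG14, SNHG12, SNHG17 and SNHG5, and 18 held it in none, among them GAS5, SNHG1, SNHG3, ZFAS1 and SNHG29. Of the 18 without the word, 8 were lower (44.4%) and 3 were higher (16.7%), and of the 8 with it in fewer transcripts, 4 were lower (50%) and 1 was higher (12.5%). Over all genes tested, 36.2% were lower with the word in at least 50% of transcripts, 35.2% with it in fewer and 20.2% without it. The word had been picked on these data, so these shares repeat that choice and are not a test of it. Transcript length was not taken into account.

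Of the 10 tested members that were not called, 8 had a log2 fold change below 0. SNHG16 had 109, 107 and 102 CPM in control and 105, 95.9 and 101 CPM in shMUC1 libraries, with overlapping groups. Its 95% interval ran from -0.16 to 0.01, which bounds a decrease to less than that seen for GAS5 or SNHG3. SNHG6 had a log2 fold change of -0.19 (SE 0.096, edgeR adjusted p = 0.0992), SNHG26 one of -0.15 (SE 0.0732) and SNHG15 one of -0.11 (SE 0.077). EPB41L4A-AS1 was at 0.11 (SE 0.11). SNHG19 had a log2 fold change of -0.11 (95% interval -0.43 to 0.21) and SNHG18 one of -0.02 (-0.44 to 0.39), and neither interval reached the values of DANCR, SNHG3 or TUG1. SNHG31, at -0.60 (-1.24 to 0.04), and SNHG32, at -0.18 (-1.16 to 0.80), had intervals too wide to separate a decrease of the size of that of TUG1 from none. SNHG32 had only 7 to 16 counts and is a protein-coding entry, C6orf48, in GENCODE release 29. The 6 members under the filter had at most 16 counts in any library. Those were SNHG9, SNHG21, SNHG22, SNHG25, SNHG27 and SNHG28, of which SNHG27 had no count in any library.

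Whether the count of a host holds reads of a neighbour depends on the strand setting, which was not given in the sources used here. The share of exon bases that lie on an exon of the other strand was 49.6% for EPB41L4A-AS1, 30.6% for SNHG16, 29.3% for SNHG6, 26.1% for ZFAS1, 25.2% for SNHG7 and 20.1% for SNHG10, and 14% of SNHG4 and 11% of SNHG3 exon bases are shared with genes of the same strand (MATR3, and RCC1 with SNORA73A). The values of these members are uncertain to that extent. For ZFAS1, the overlapping gene ZNFX1 rose by 0.41 on the log2 scale, opposite to ZFAS1. For SNHG10, the overlapping gene GLRX5 rose too, from 69.0 to 95.5 CPM (log2 0.47, SE 0.0463), and for SNHG7 the overlapping DIPK1B fell by 1.08 (SE 0.32) at 13 to 62 counts. The part of these neighbours in the values of SNHG10 and SNHG7 was not tested. DANCR, GAS5, SNHG1, SNHG14 and TUG1 have at most 12% of exon bases on another gene, which for SNHG1 are its own snoRNAs.

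The snoRNAs themselves could hardly be read from these libraries. Of 148 snoRNAs assigned to the members by name or position, 131 had a row, 112 had no count in any library and 19 had at least 1 count. The kit selects poly(A) RNA, and mature snoRNAs carry no poly(A) tail. Some snoRNAs, such as SNORD12 in ZFAS1, also lie on annotated exons of their host. The part of either in the missing counts was not tested. SNORA73B, a box H/ACA RNA in an intron of SNHG3, had most of the snoRNA counts, and its 204 bases are printed because it is the only snoRNA called, with the ACA box that ends this class in capitals.
SNORA73B, chr1:28508559-28508762, plus strand: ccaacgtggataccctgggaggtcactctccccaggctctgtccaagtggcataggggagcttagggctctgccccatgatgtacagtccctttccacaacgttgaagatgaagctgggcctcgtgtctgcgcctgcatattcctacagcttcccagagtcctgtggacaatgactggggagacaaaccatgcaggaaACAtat
SNORA73B had 1477, 1515 and 1706 counts in control and 1596, 1152 and 1062 in shMUC1 libraries, or 65.2 ± 2.69 against 53.2 ± 7.34 CPM (SD, n = 3). It fell by 0.30 on the log2 scale (SE 0.0653, edgeR adjusted p = 0.000244), beside -0.51 for its host SNHG3. The other 5 tested were SNORA71B (-0.30, SE 0.244), SNORA74A (0.47, SE 0.357), SNORD12C (-0.90, SE 0.409), SNORD93 (-0.93, SE 0.495) and SNORD99 (-1.24, SE 0.538), and none of these passed the threshold at means of 12.3 to 59 counts. In SNHG14, 79 of 83 snoRNAs with a row had no count, so the fall of SNHG14 cannot be followed to its snoRNAs here.

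Several hosts share a promoter region with a coding gene on the other strand, and no tested partner was lower. Of 9 genes that start within 1000 bases of a member on the opposite strand and passed the filter, 4 were higher (44.4%, against 25.2% of all genes) and 0 were lower (against 23.6%) by edgeR. SLC3A2, the heavy chain of amino acid transporters, starts 188 bases from SNHG1 and rose from 418 ± 13.3 to 617 ± 19.8 CPM (SD, n = 3; log2 0.56, SE 0.0318, edgeR adjusted p = 2.37e-17), while SNHG1 fell by 0.29. ZNFX1, an RNA helicase with zinc fingers, starts 248 bases from ZFAS1 and rose from 124 ± 4.21 to 165 ± 3.96 CPM (SD, n = 3; log2 0.41, SE 0.039), while ZFAS1 fell by 0.39. ZBTB37, a zinc finger gene 800 bases from GAS5, rose by 0.16 (SE 0.0503, edgeR adjusted p = 0.00964), while GAS5 fell by 0.44. All distances are between gene starts in GENCODE release 29, and for GAS5, ZFAS1, SNHG1 and TUG1 these lie outside the windows printed above. ACAA2, a mitochondrial thiolase next to the untested SNHG22, rose by 0.42 (SE 0.0576). MORC2 beside TUG1 (0.04, SE 0.0627), RPS2 beside SNHG9 (0.06, SE 0.0274), TRAF7 beside SNHG19 (0.06, SE 0.0498), BARD1 beside SNHG31 (0.05, SE 0.044) and SEMA5A beside SNHG18 (-0.31, SE 0.256) were not called. The count of lower partners was 0 of 9 also at an unadjusted p under 0.05, and 0 with DESeq2 and with limma-voom, each of which called 5 higher.

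**Figure D3:**
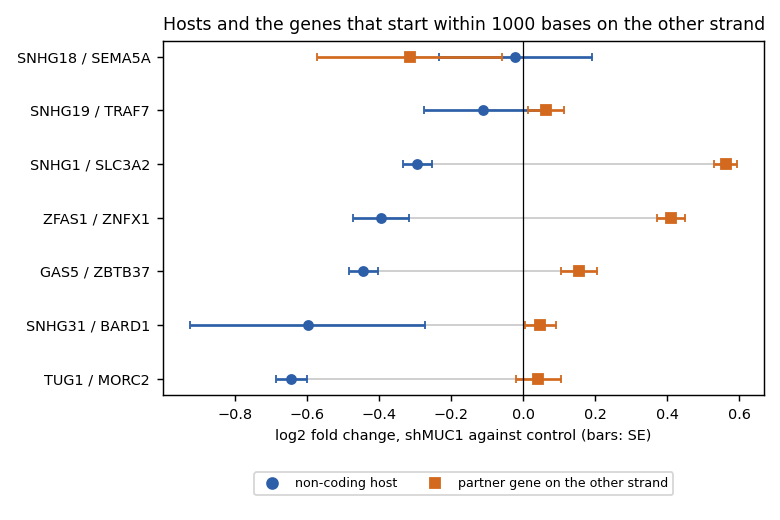
Log2 fold change, shMUC1 against control, of 7 tested hosts (blue circles) and of the gene that starts within 1000 bases on the other strand (orange squares), with SE bars. For SNHG1, ZFAS1 and GAS5 the host lies below 0 and the partner above it, as in SNHG1 at -0.29 and SLC3A2 at 0.56.

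Protein-coding genes that carry snoRNAs in their introns, mostly TOP mRNAs of ribosomal proteins and translation factors, were called in both directions. Of 38 tested, 9 were lower (23.7%, against 23.6% of all genes) and 5 were higher (13.2%, against 25.2%). Their median was -0.0047 on the log2 scale. Among the lower genes the largest changes were those of the translation initiation factors EIF4A1 (19.5 to 12.1 CPM, log2 -0.69, SE 0.0972) and EIF4A2 (328 to 271 CPM, log2 -0.27, SE 0.0338), where the EIF4A1 count is uncertain because a SENP3 readthrough gene shares its exons. RPL23A, a ribosomal protein of the large subunit, rose by 0.30 (SE 0.048), as did PTCD3, a mitochondrial ribosome protein, by 0.29 (SE 0.0367). The only non-coding host listed under another symbol, MEG8, was under the filter.

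Among proteins that assemble with snoRNAs into snoRNPs, more were higher than lower. Of 19 tested, 10 were higher (52.6%, against 25.2% of all genes) and 2 were lower (10.5%, against 23.6%), with a median of 0.15. SNU13, the core protein that binds box C/D RNAs, rose from 89.3 ± 2.68 to 111 ± 1.56 CPM (SD, n = 3; log2 0.32, SE 0.0422), and the assembly factor ZNHIT6 rose by 0.32 (SE 0.0473). The lower members were NOP56 (-0.26, SE 0.0402), a box C/D core protein, and DKC1 (-0.23, SE 0.0354), the pseudouridine synthase of box H/ACA RNAs, both of which also carry snoRNAs in their introns and are counted among the protein-coding hosts too.

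Of 21 factors of nonsense-mediated decay and the exon junction complex, 3 were higher and 4 were lower, with a median of -0.003. The share called was 33.3% here and 25% among the decapping and exonuclease factors, under the 48.7% of all genes. SMG1 (-0.48, SE 0.0322), the kinase that phosphorylates UPF1, and SMG8 (-0.53, SE 0.0931), a subunit of its complex, fell, and the helicase DHX34 (0.45, SE 0.116) and the exon junction protein MAGOH (0.28, SE 0.0512) rose. Of 16 decapping and exonuclease factors, 2 rose (DCP1A by 0.37 and TTC37 by 0.10) and 2 fell (DIS3L, log2 -0.44, and EXOSC10, log2 -0.12). Of 13 coding genes known as targets of nonsense-mediated decay, 3 rose (23.1%, against 25.2% of all genes) and 5 fell (38.5%, against 23.6%). UPP1, uridine phosphorylase, rose by 1.36 (SE 0.0606) and the stress factor ATF3 by 0.79 (SE 0.0988), while GADD45B (-0.49, SE 0.122) and GADD45A (-0.46, SE 0.0444), which act in growth arrest, fell.

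Of 20 genes that regulate TOP mRNAs through mTOR or by binding them, 9 rose and 6 fell, with a median of 0.02. These were 45% and 30% of the list, against 25.2% and 23.6% of all genes tested. DDIT4 (1.07, SE 0.16) and SESN2 (0.60, SE 0.0688), stress-induced inhibitors of mTOR complex 1, rose from 3.33 to 7.01 and from 27.8 to 42.4 CPM. EIF4EBP2 (-0.51, SE 0.0336), a repressor of the cap-binding protein, and TSC1 (-0.48, SE 0.0477), another inhibitor of the mTOR pathway, fell. Other long non-coding RNAs were split, with 7 of 26 higher (26.9%, against 25.2% of all genes) and 8 lower (30.8%, against 23.6%). LINC00511 (1.03, SE 0.0964) and MIR31HG (0.67, SE 0.172) rose, and MIR4435-2HG (-0.49, SE 0.0424) and NORAD (-0.44, SE 0.0306), which binds PUMILIO proteins, fell.

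**Figure D4:**
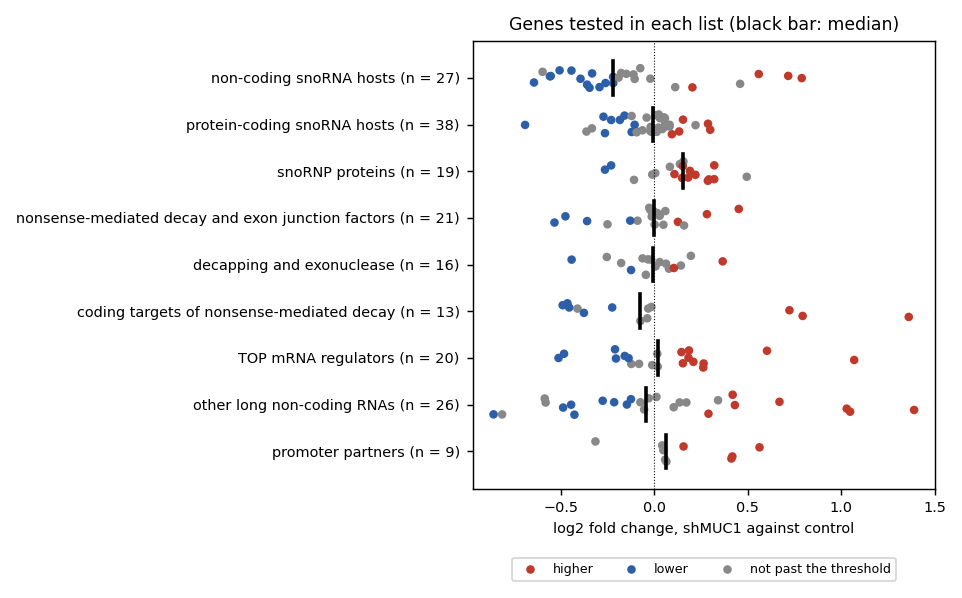
Log2 fold change of every tested gene in each list (points, red higher, blue lower, grey not called), with the median as a black bar. The non-coding hosts have a median of -0.22, the protein-coding hosts one of -0.0047 and the snoRNP proteins one of 0.15.

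The start windows were then set beside the changes. A RefSeq window was found for 29 of the 33 members. The longest run of C or T had at least 6 bases in 18 of these (62.1%), against 31.1% of 35116 promoters, and its median was 6 bases against 4. The length of 6 was chosen after the windows had been seen. The motif TCTTT on the sense strand, which is itself part of such a run, lay in the windows of ZFAS1, SNHG5, SNHG16, SNHG19 and SNHG32 (17.2%), against 3.92% of all promoters, and its reverse complement AAAGA lay in 1 member, against 2.79%. Of 17 tested members with a run of at least 6, 10 were lower and 1, SNHG8, was higher, with a median of -0.26. Of 8 tested members with a shorter run, 3 were lower (TUG1, GAS5 and SNHG11) and 3 were higher (DANCR, SNHG10 and SNHG30), with a median of 0.29. GAS5 counts as short by the RefSeq window, whereas its GENCODE start shown above opens with 6 pyrimidines. Over all genes tested, 25.6% were lower and 26.4% higher with a run of at least 6. With a shorter run, 23.7% were lower and 27.8% higher. The window does not place the run at the first base of the RNA. In SNHG14, SNHG7 and SNHG26 the run lies wholly before the RefSeq start, as in SNHG29. The RefSeq window of SNHG14 (chr15:24823593-24823622) is also far from its GENCODE start at 24978583. The part of the run in the changes was not tested. Of the 5 members with TCTTT, 2 were lower (40%; median -0.18), and of the 20 without it, 11 were lower (55%; median -0.24). Over all genes tested, 28.6% were lower with TCTTT and 24.2% without it.

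**Figure D5:**
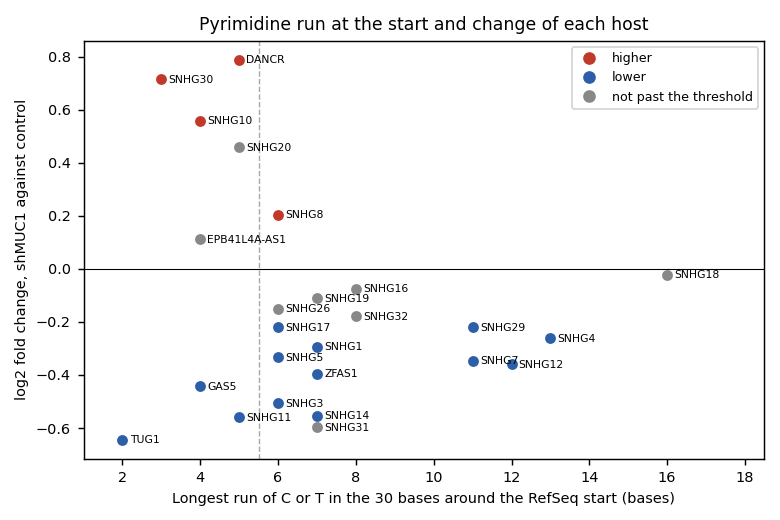
Log2 fold change of the 25 tested members with a start window against the longest run of C or T in that window (bases), with the dashed line between 5 and 6 bases. DANCR, SNHG10 and SNHG30 lie on the short side above 0, and TUG1, with a run of 2, lies lowest.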

How the data were processed

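RNA-seq was performed on poly(A) RNA (TruSeq Stranded mRNA) of 6 libraries. The deposited table held raw counts by gene symbol, with 1 column for each library. Their processing notes name CASAVA 1.8.2, STAR 2.7.9a, featureCounts, DESeq2 1.24.0 and GRCh38.p7; the annotation release and strand setting were not given in the sources used here. Values from 1 to 20 were even in 68.8 to 70.5% of cases, as if each pair had been counted by both of its reads, so halved counts were tried. The labels name triplicate cultures but not their origin, so p-values cover the spread between these libraries only. Intervals of fold changes were built from the SE and include that spread, and the floor of 3 counts covers counting error only.

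Groups were compared by edgeR 4.0.16 (quasi-likelihood test; R 4.3.3, TMM, filterByExpr, group as the only term, two-sided), with Benjamini-Hochberg adjustment over 15355 genes. SEs were derived from the F statistic, and CPM used TMM-scaled totals. The test was also checked on simulated counts, drawn with the levels and dispersions of these libraries. Symbols were matched to GENCODE release 29 (99.8% of rows, all 33 members) for position, exon length and overlap, and to RefSeq for start windows. Alternatives were DESeq2 1.42.0, limma-voom (limma 3.58.1), other scalings and filters, a replicate block, halved counts, no mitochondrial genes, fold change thresholds and each library left out in turn. Members called with a mean of at least 100 counts were given in full, and other lists by up to 2 genes in each direction under the same minimum. The members and lists were chosen with earlier results of these data known.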

Additional observations from a re-analysis of the deposited data

How the results depend on the processing

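Of 255 alternative values for the 17 called members, 246 kept both the direction and the call, 9 kept the direction only and 0 changed sign. The 9 were SNHG11 with DESeq2 (adjusted p = 0.0812) and the libraries left out for SNHG11, SNHG4 and SNHG7 as given above. With a fold change over 1.5 added, 2 members were higher and 1 lower; with a fold change over 2, 0 were higher and 0 lower. Leaving out single libraries gave 4 higher and 11 to 13 lower members. Of 147 alternative values for the 10 members not called, 3 were called: SNHG31 without shMUC1 replicate 1 (-1.01), SNHG26 (-0.17) when genes had to average 50 counts, and SNHG16 without control replicate 3 (-0.12). Another 5 changed sign. With single libraries left out SNHG32 ranged from -0.50 to 0.034 and SNHG18 from -0.20 to 0.21, and SNHG18 was at 0.0057 with limma-voom. The cause was not tested. The snoRNAs called numbered 2 with limma-voom and 1 to 2 with single libraries left out. Without mitochondrially encoded genes the members held 0.144% of control and 0.120% of shMUC1 counts. SNHG31 and SNHG32 had no value where an alternative filter removed them.

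Libraries with the same replicate number did not deviate together (correlations of 0.0259, -0.0179 and -0.0343), so no pairing by number was visible. These values cannot exclude a pairing of the cultures. With the replicate block, 4 members were higher and 13 lower, and the median log2 fold change was -0.217.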
